A study of Mus musculus with 5 samples.

Results

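Isolated RAP1 peaks are places where the protein was called alone: no other listed peak lay within 200 kb on either side, although the surrounding megabase held several. They were chosen by position from the autosomal part of the deposited list. A peak was kept when its midpoint lay more than 200 kb from the midpoints of both neighbouring peaks and its 1 Mb bin held 4 or more peaks, itself included. The first and last listed peak of each chromosome were left out. This gave 445 of 30398 listed peaks, or 1.49% of the 29940 peaks on chromosomes 1 to 19. Without the bin rule, 697 autosomal peaks (2.33%) were isolated, and the other 252 lay in bins of 1 to 3 peaks.

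The series holds 2 RAP1 immunoprecipitates from wild-type mouse embryonic fibroblasts and, as their negative control, 2 from fibroblasts in which Rap1 was deleted. A further library was 1 input without antibody. All fibroblasts carried the SV40 large T antigen, which inactivates p53 and the retinoblastoma protein and immortalises cells, and were grown with puromycin; the antibody libraries are labelled as mixed background. The sources used here give neither the way Rap1 was deleted nor the age of the embryos.

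RAP1 is the shelterin subunit that TRF2 holds on the TTAGGG repeats of telomeres, where the complex keeps chromosome ends from being treated as breaks. Mammalian RAP1 also associates with sites inside chromosomes, some of them with short runs of telomere-like repeats. At a bound site, chromatin immunoprecipitation followed by sequencing gives forward-strand reads on one side and reverse-strand reads on the other. No genome sequence of mm9, the build of the list, was used here, so no sequence, gene or repeat was assigned to a peak.

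The list pools the libraries into a positive read set, read here as wild type, and a negative read set, read here as Rap1-deleted. The values are therefore pooled reads with no spread between replicates, and the depth of each library is unknown. Reads over the whole peak come with reads in strand windows, which count each strand separately and can extend beyond the peak. Negative reads were multiplied by 3.321, the factor solved from the deposited fold columns. Ratios of positive to scaled negative reads have conditional binomial 95% intervals, shares have exact Clopper-Pearson 95% intervals, and medians have order-statistic 95% intervals. All of them cover counting error only, since PCR copies are not independent molecules. The positions that chose the isolated peaks came from the same contrast as the reads, and no value exists per library. The values are therefore a description, and no difference between peak sets was tested.

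The isolated peaks lay far from their neighbours by construction. The distance to the nearer neighbour had a median of 252 kb (interquartile range 221 to 301 kb, full range 200.4 to 728 kb), and that to the farther neighbour a median of 386 kb (294 to 502 kb, full range 214 to 2785 kb). Over all 29902 autosomal peaks with both neighbours, the median nearer distance was 18.1 kb. Of the isolated peaks, 212 (47.6%) lay within 250 kb of a neighbour, 112 lay more than 300 kb away from both, and 7 more than 500 kb. The farther neighbour was more than 2 times as distant as the nearer one for 89 peaks.

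The 3 peaks just inside the limit lay 200.4 kb (chromosome 15), 200.7 kb (chromosome 11) and 200.8 kb (chromosome 13) from the nearer neighbour. They held 25, 25 and 38 positive reads. The 3 just outside, at 199.7 kb (chromosome 10), 199.8 kb (chromosome 11) and 199.99 kb (chromosome 18), held 27, 39 and 25 positive reads. On either side of the limit the read numbers were of the same order.

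Beyond the empty 200 kb, peak density around the isolated peaks came back slowly. It was 7.17 listed peaks per Mb between 200 and 250 kb from the midpoint, 8.73 between 200 and 500 kb, 10.3 between 500 and 1000 kb and 10.9 between 1000 and 2000 kb. Around the 2612 other peaks of the same 1 Mb bins, density was 14.7 peaks per Mb within 200 kb, 10.8 between 200 and 500 kb, 10.2 between 500 and 1000 kb and 11.6 between 1000 and 2000 kb. Around all 29495 other autosomal peaks it was 19.97 within 200 kb and still 14.4 between 1000 and 2000 kb, against an autosome mean of 12.4. Isolated peaks and their bin companions thus shared surroundings slightly poorer in peaks than the autosome mean, and their densities lay close together from about 500 kb outward. The rule fixed the first 200 kb and, through the bin, part of the densities up to 1 Mb.

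**Figure D1:**
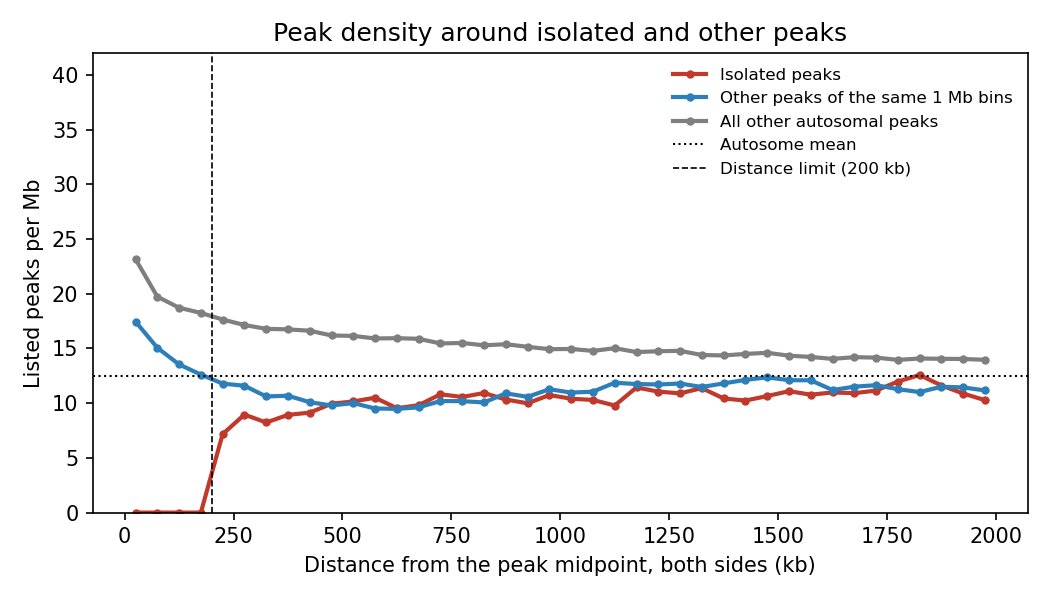
Listed peaks per Mb (vertical axis) by distance from the midpoint of each peak in steps of 50 kb (horizontal axis, both sides together), for the 445 isolated peaks, the 2612 other peaks of the same 1 Mb bins and all 29495 other autosomal peaks. The line of the isolated peaks is 0 up to the limit at 200 kb, starts at 7.17 peaks per Mb just beyond it and meets the line of the bin companions at about 500 kb.

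The peaks beside an isolated one were less crowded too. Of the 745 neighbours that were not isolated themselves, 87 (11.7%) had another peak within 10 kb, against 34.9% of autosomal peaks with both neighbours. Within 50 kb the share was 45.2% of these neighbours and 78.1% of autosomal peaks. These neighbours each have 1 empty side of over 200 kb by construction, which lowers both shares.

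Isolated peaks were found in bins of many sizes. They occupied 380 of the 2103 autosomal bins of 4 or more peaks (18.1%). Of the bins with 4 or 5 peaks 56.3% held at least 1, of those with 6 to 9 peaks 27.3%, of those with 10 to 14 peaks 13.0%, and of those with 15 or more 4.14%. By number, 189 isolated peaks lay in bins of 4 or 5 peaks, 148 in bins of 6 to 9, 74 in bins of 10 to 14 and 34 in bins of 15 or more. The median bin of an isolated peak held 6 peaks, and that of an autosomal peak 17. The fall with bin size and the smaller median bin go with the distance rule, which fuller bins meet less easily.

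The 5 fullest bins with an isolated peak held 25 to 37 peaks. On chromosome 10, the peak from 126146746 to 126146799 stood 216 kb and 209 kb from its neighbours in a bin with 36 other peaks. On chromosome 15, the peak from 73954865 to 73954895 stood 205 kb and 223 kb from its neighbours, also with 36 others in the bin. These had 27 and 21 positive reads and no negative read. The other 3 lay on chromosome 9 from 107193395 to 107193453, on chromosome 4 from 150909519 to 150909601 and on chromosome 10 from 66068821 to 66068877. They held 23, 28 and 21 positive reads, again with no negative read. All 5 were short regions of 31 to 83 bp with read numbers at or under the 28 reads of the median peak among the companions. Each of the 5 empty stretches ran across an edge of the crowded bin into the next one, so none lay wholly inside it.

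At the other extreme, some bins were made mostly or wholly of isolated peaks. A bin on chromosome 3 held 4 peaks, and all 4 were isolated. They start at 111100939, 111314785, 111560701 and 111804200, spaced 214, 246 and 243 kb apart. They held 21, 23, 39 and 25 positive reads, and the fourth was the one with negative reads, 15 in its strand windows. A further 4 bins held 3 isolated peaks each, on chromosomes 9, 13, 16 and 17, where the 12 isolated peaks had 22 to 47 positive reads and no negative read. In all, 127 isolated peaks formed 55 runs of 2 to 4 that were each other's direct neighbours. These bins and runs were picked out after their values were seen.

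The gaps on either side of the isolated peaks numbered 818 and covered 298 Mb, or 12.4% of the 2406 Mb between the first and last listed peaks of the autosomes. The widest were on chromosome 7, where the peak from 13853630 to 13853704 had 2785 kb without a listed peak on one side and 202 kb on the other. On chromosome 2, the peak from 174386980 to 174387031 had 2513 kb and 215 kb. The peaks on chromosome 7 from 86121869 to 86121974 and on chromosome 4 from 61506196 to 61506237 had 1839 kb and 1820 kb on the emptier side. These 4 were chosen after their values were seen; they held 24 to 37 positive reads and no negative read.

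The 5 isolated peaks with the greatest distance to the nearer neighbour lay on chromosomes 6, 3, 10, 16 and 3. The peak on chromosome 6 from 70026605 to 70026635 stood 935 kb and 728 kb from its neighbours. It was 31 bp long with 20 positive and 16 negative strand reads, a ratio of 0.376 (95% interval 0.185 to 0.777), so the scaled Rap1-deleted reads outnumbered the wild-type ones. On chromosome 3, the peak from 15942660 to 15942708 stood 718 kb and 839 kb away, with 32 positive reads and no negative read. On chromosome 10, the peak from 32896315 to 32896352 stood 729 kb and 642 kb away, with 24 positive and 5 negative strand reads (ratio 1.45, 0.541 to 4.85). The peaks on chromosome 16 from 62123841 to 62123956 and on chromosome 3 from 72242339 to 72242380 had 36 and 29 positive reads and no negative read. Thus the most remote peaks included both clean ones and one whose interval against the control lies wholly under 1.

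Every autosome held isolated peaks, from 8 on chromosome 19 to 42 on chromosome 1, with a median of 22. As a share of each chromosome's own peaks they ran from 0.548% (0.283 to 0.955) on chromosome 11 to 2.62% (1.73 to 3.78) on chromosome 7, with a median of 1.52%. Chromosome 11 had 18.4 listed peaks per Mb and chromosome 7 had 6.91. The chromosome densest in peaks thus had the smallest share and the sparsest autosome the largest. The distance rule itself favours this order, because wide gaps are rarer where peaks are denser. Per length the spread was narrower, from 1.01 isolated peaks per 10 Mb on chromosome 11 to 2.61 on chromosome 5. Along the chromosomes, 5 equal stretches from the proximal to the distal end held 83, 84, 97, 79 and 102 isolated peaks, against 5110, 5507, 5778, 6474 and 6626 other autosomal peaks. In shares, the most distal stretch held 22.9% of the isolated peaks and 22.5% of the others, and the most proximal one 18.7% and 17.3%.

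**Figure D2:**
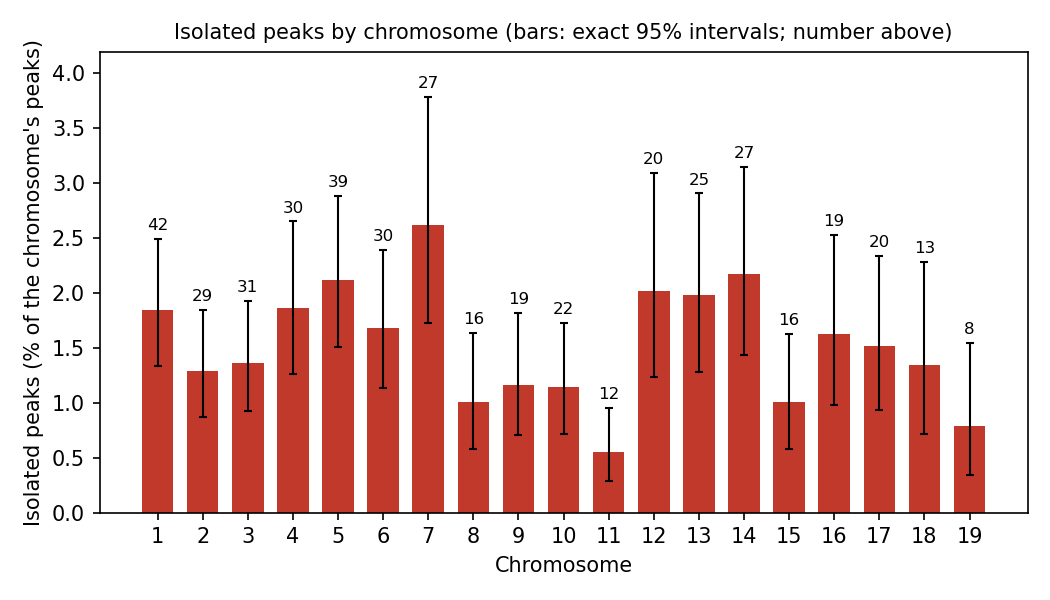
Isolated peaks as a percentage of all listed peaks of each autosome (vertical axis), with exact 95% intervals and the number of isolated peaks above each bar. Chromosome 11 is lowest at 0.548% from 12 peaks and chromosome 7 highest at 2.62% from 27 peaks.

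In shape the isolated peaks resembled the other peaks. Their median length was 53 bp (50 to 56), with quartiles at 38 and 71 bp and extremes of 29 and 374 bp, against 55 bp (53 to 56) for their bin companions and 56 bp (56 to 57) for all other autosomal peaks. Peaks of 29 to 31 bp numbered 70, or 15.7% (12.5 to 19.5), against 18.8% (17.3 to 20.4) of the companions and a background of 17.7% of autosomal peaks. Peaks of 120 bp or longer numbered 32, or 7.19% (4.97 to 10.0002), against 9.34% (8.25 to 10.5) of the companions and a background of 10.6%. Reverse reads peaked downstream of forward reads, the order that a bound site gives, in 425 of them (95.5%, 93.1 to 97.2). That order held in 93.8% (92.8 to 94.7) of the companions, with a background of 92.9%. The median distance between the modes was 51 bp (48 to 54) in isolated peaks and 51 bp (50 to 52) in companions. In most of the named regions this distance equalled the peak length. The order and the distance of the modes thus largely restate how the list drew each peak and are not separate evidence of binding. The number in each strand window differed by a median of 1.25 times between strands in isolated peaks and in companions alike. The lowest number of positive reads in a strand window of the list was 10, which limits how far the strands can differ. With this minimum, few peaks held under 20 positive reads, 0.449% of isolated peaks and 0.745% of autosomal peaks.

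In read number the isolated peaks differed mostly at the upper end. The median was 26 positive reads (26 to 27; interquartile range 23 to 31, full range 16 to 115), against 28 (27 to 28) in the bin companions and 28 (28 to 28) in all other autosomal peaks. The mean was 28.02 ± 7.48 reads (SD over 445 peaks), against 29.6 ± 8.40 over the companions and 30.3 ± 9.74 over all other autosomal peaks. Peaks of 40 or more positive reads made up 4.49% (2.77 to 6.86) of the isolated peaks, 10.8% (9.60 to 12.01) of the companions and 13.1% of autosomal peaks. Peaks of 50 or more made up 0.899% (0.245 to 2.29), against 2.91% (2.30 to 3.63) of the companions and 4.25% of autosomal peaks. For both minimums the interval of the isolated peaks lies wholly under that of the companions, though barely so for 50 or more. Within bins of 4 or 5 and of 6 to 9 peaks the intervals overlap for both minimums. For 40 or more, the shares there were 3.17% against 5.15% of companions and 6.08% against 10.3%. For 50 or more, they were 0% against 2.01% and 2.03% against 2.08%. The mean was lower in isolated peaks than in the other peaks of the same chromosome on 18 of 19 autosomes. Chromosome 3, where the isolated peak with 115 reads lies, was the exception at 30.9 against 30.1 reads. The median was higher in isolated peaks on chromosomes 8, 9, 12, 13, 16 and 18, and lower on the others. These other peaks were not matched for bin size. Weighted to the isolated peaks' mix of bin sizes, the mean of all other autosomal peaks was 28.7 reads, against 28.02.

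**Figure D3:**
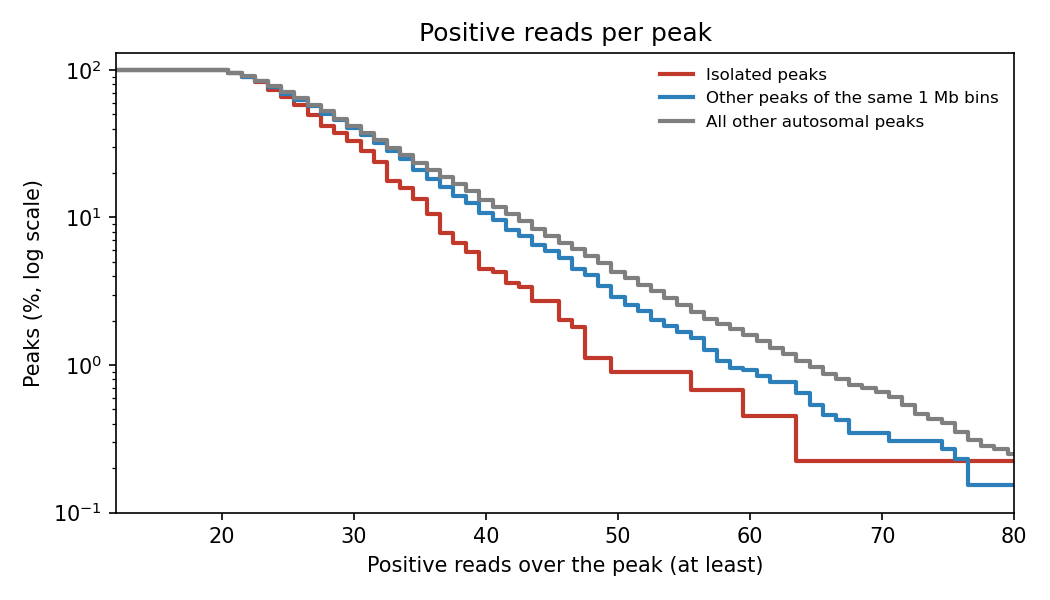
Share of peaks (vertical axis, percent on a log scale) that hold at least the number of positive reads on the horizontal axis, for isolated peaks, other peaks of the same 1 Mb bins and all other autosomal peaks. The line of the isolated peaks lies below both others from 21 to 76 reads, and above that of the companions from 77 reads. It stands at 0.899% at 50 reads, against 2.91% of the bin companions, and its last steps rest on 4 peaks.

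Rank set the isolated peaks less apart than read number did. In the deposited ranking, 8 of them (1.80%, 0.779 to 3.51) stood among the best 1000 peaks, against 72 companions (2.76%, 2.16 to 3.46) and a background of 3.30%. A deposited false discovery rate of 0.01 or less was given to 245 isolated peaks (55.1%, 50.3 to 59.7), to 55.6% (53.7 to 57.5) of the companions and to 55.9% of autosomal peaks. The median deposited log2 fold, which is nearly always set by the highest window of positive reads alone, was 4.70 in isolated peaks, in companions and in all other autosomal peaks.

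The 4 isolated peaks with 50 or more positive reads, picked out after their values were seen, were unlike each other. The best-ranked isolated peak, rank 9 of the whole list, lies on chromosome 3 from 8246273 to 8246509, 338 kb and 294 kb from its neighbours. It held 115 positive reads over 237 bp, with 98 positive against 2 negative strand reads (ratio 14.8, 3.98 to 124). The next, rank 46, lies on chromosome 17 from 93557912 to 93557961, 495 kb and 218 kb from its neighbours. It held 59 positive and 2 negative reads in 50 bp (ratio 8.88, 2.35 to 75.1). The other 2, on chromosome 10 from 65794168 to 65794421 and on chromosome 14 from 103967674 to 103967882, spread 63 and 55 positive reads over 254 and 209 bp with no negative read. They ranked 19519 and 10594.

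The 10 best-ranked isolated peaks were 33 to 237 bp long and held 39 to 115 positive reads, a number that 5.84% of isolated peaks reached. Ranks 201 and 352 lie on chromosome 15, from 9739595 to 9739695 with 49 positive reads and from 30257929 to 30257986 with 45. With 0 negative reads, a floor of 3 counts over the pooled negative set puts them at least 4.92-fold and at least 4.52-fold higher in the wild-type set. Such a bound is the positive reads over a constant floor, carries no interval and does not measure the excess over the control. Chromosome 11 from 7495746 to 7495784 (43 reads) and chromosome 1 from 150568656 to 150568732 (42 reads) were at least 4.32-fold and at least 4.22-fold higher. On chromosome 2 from 150348273 to 150348305 there were 41 positive and 1 negative strand reads, a ratio of 12.3 (2.10 to 499). The last 3 of the best 10, on chromosome 1 from 113823916 to 113823991, chromosome 3 from 111560701 to 111560779 and chromosome 10 from 91305569 to 91305639, held 39 positive reads each and no negative read, at least 3.91-fold higher. Of these 10 peaks, 7 had no negative read in any column.

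The best isolated peaks of the remaining chromosomes held 29 to 47 positive reads over the whole peak. On chromosome 9 from 74390876 to 74390951 it held 40 positive reads and on chromosome 8 from 38431906 to 38431963 it held 39, neither with a negative read. On chromosome 5 from 16577901 to 16577965 it held 39 positive and 2 negative strand reads (ratio 5.87, 1.52 to 50.2). Chromosome 7 from 100922828 to 100922890, chromosome 4 from 25109193 to 25109238, chromosome 14 from 108216096 to 108216166, chromosome 12 from 5326075 to 5326132 and chromosome 18 from 28196760 to 28196852 gave 36 or 37 positive reads. These 5 had no negative read. On chromosome 13 from 27344053 to 27344082 the best peak had 35 positive reads, 10 forward and 25 reverse, and on chromosome 6 from 133023254 to 133023305 it had 34. On chromosome 16 from 88697910 to 88697969 it had 47, again without a negative read. Chromosome 19 had the weakest best peak, ranked 8817, from 11451061 to 11451108 with 27 positive and 4 negative strand reads and a ratio of 2.03 (0.708 to 7.99), an interval that includes 1.

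Negative reads, read here as the signal left in Rap1-deleted cells, were found at fewer isolated peaks than at other peaks. Of the 445, 43 (9.66%, 7.08 to 12.8) had any, against 420 of their 2612 bin companions (16.1%, 14.7 to 17.5) and a background of 18.9%. Conversely, 402 isolated peaks had none (90.3%, 87.2 to 92.9; background 81.1%), with bounds that run from at least 1.71-fold to at least 6.32-fold higher in the wild-type set, median at least 2.61-fold. These bounds restate the positive reads over a constant floor of 9.96 scaled reads and do not measure the excess over the control. The 252 isolated peaks in bins of 1 to 3 peaks had negative reads at 6.35% (3.67 to 10.1). The share was lower in isolated peaks than in the other peaks of their own chromosome on 16 of 19 autosomes and higher on 3, chromosomes 1, 12 and 13.

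Summed over the strand windows, the isolated peaks held 12386 positive and 360 negative reads, a scaled ratio of 10.4 (9.33 to 11.5). The companions held 77065 and 3463, a ratio of 6.70 (6.48 to 6.94), and all other autosomal peaks 888514 and 47149, a ratio of 5.67 (5.62 to 5.73). In bins of 4 to 9 peaks, where most isolated peaks lie, the intervals of this ratio overlap those of the other peaks. The sum also rested on few regions. The peak with most negative reads, on chromosome 3 from 59214850 to 59214878, gave 45 of the 360, and peaks of 29 to 31 bp gave 48.3% of them. Removing the 29 to 31 bp peaks from the list before neighbours were found gave 538 isolated peaks and a ratio of 22.2 (19.3 to 25.5). The same removal was not made for the other peaks, and their share of negative reads from short peaks is not given here. Neither value therefore sets the isolated peaks apart.

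Where negative reads were present, they were about as many in isolated peaks as elsewhere. The 43 peaks had a median of 7 negative strand reads, as the companions with such reads did. Their summed ratio was 1.08 (0.959 to 1.21), against 1.17 (1.13 to 1.22) in the 420 companions and 1.19 (1.18 to 1.20) in the 5603 other autosomal peaks with negative strand reads. The ratio was 1 or less in 17 of them (3.82% of isolated peaks; background 6.61%) and under 2 in 30 (6.74%; background 12.6%). By their own intervals, 6 lay wholly above 1, 3 wholly under 1 and 34 spanned 1. These 3 counts are not given for other peaks, so they do not set the isolated peaks apart. Isolated peaks thus held fewer regions with negative reads, and the wild-type and scaled Rap1-deleted reads of those regions were about equal in sum. In 42 of the 43 the negative reads were on 1 strand alone (97.7%, 87.7 to 99.9), against 386 of 420 companions (91.9%, 88.9 to 94.3).

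Of the 5 isolated peaks with most negative reads, 4 were 29 to 38 bp long and the other 56 bp. The one on chromosome 3 from 59214850 to 59214878, 29 bp long, had 35 positive and 45 negative strand reads, a ratio of 0.234 (0.146 to 0.373). On chromosome 12 from 52071088 to 52071143 there were 28 and 17 (0.496, 0.262 to 0.966). On chromosome 4 from 55746367 to 55746396 there were 28 and 16 (0.527, 0.275 to 1.04). The remaining ones were the chromosome 6 peak with 20 and 16, described above, and the chromosome 3 peak from 111804200 to 111804237 with 25 and 15 (0.502, 0.254 to 1.02). All 5 ratios were under 1, which choosing the peaks by their negative reads favours and which is no separate result. Each of the 5 peaks had 0 negative reads in the whole-peak column. That column showed negative reads at 2 isolated peaks in all, and 41 of the 443 with 0 there had negative strand reads. In 25 of the 42 strand entries behind these 41 (59.5%) the densest negative window fell within the peak.

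Both shares were graded by the distance to the nearest peak, without a break at 200 kb. Among autosomal peaks in bins of 4 or more, negative reads were present at 37.4% (35.1 to 39.7) of peaks with a neighbour within 1 kb, 22.2% (21.3 to 23.05) at 1 to 10 kb and 17.7% (17.0 to 18.4) at 10 to 50 kb. The share was 13.4% (12.3 to 14.5) at 50 to 100 kb, 10.7% (9.32 to 12.2) at 100 to 200 kb and 9.66% (7.08 to 12.8) in the isolated peaks. Peaks of 50 or more positive reads made up 10.3% (8.88 to 11.7), 5.32% (4.85 to 5.81), 3.76% (3.44 to 4.10), 2.70% (2.21 to 3.26), 1.51% (0.995 to 2.18) and 0.899% (0.245 to 2.29) over the same classes. In both series the intervals of the class at 100 to 200 kb and of the isolated peaks overlap. Within the isolated peaks no further decline appeared: negative reads stood at 10.4% (6.62 to 15.3) of those with a neighbour at 200 to 250 kb, 5.79% (2.36 to 11.6) at 250 to 300 kb and 12.5% (7.01 to 20.1) beyond 300 kb.

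**Figure D4:**
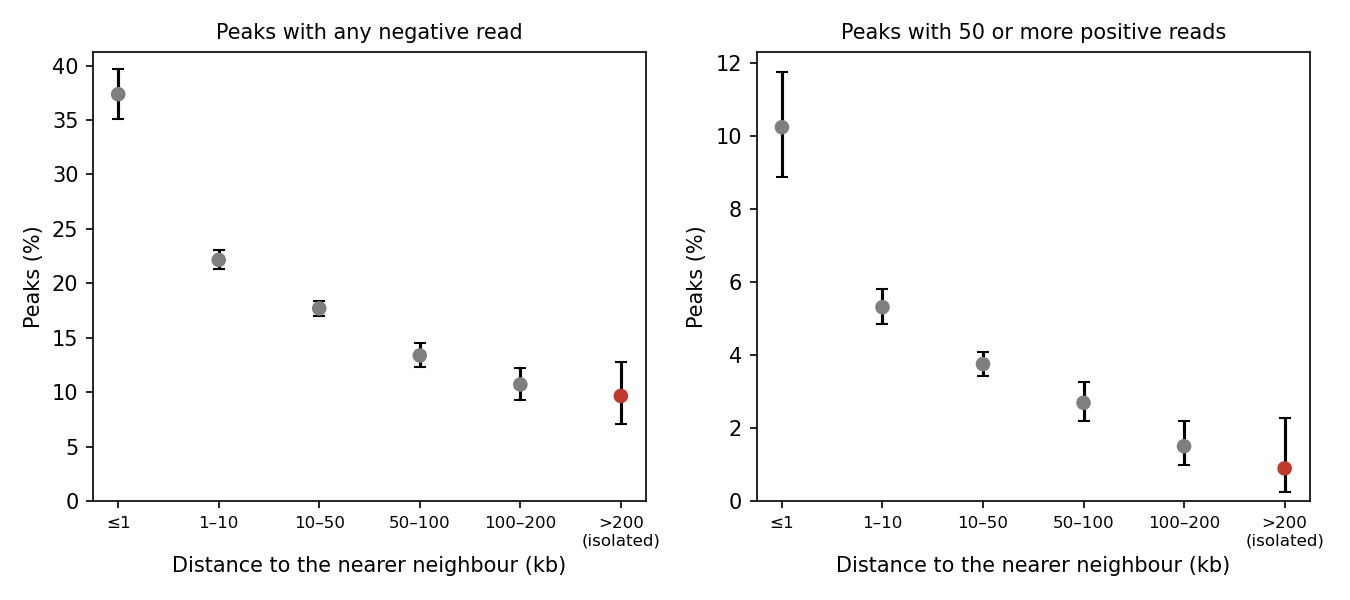
Share of autosomal peaks in bins of 4 or more peaks that have any negative read (left) and 50 or more positive reads (right), by distance to the nearer neighbour (horizontal axis, kb), with exact 95% intervals. Both shares decline from the class within 1 kb (37.4% and 10.3%) to the isolated peaks (9.66% and 0.899%), and the isolated class overlaps the class at 100 to 200 kb.

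Part of the difference between isolated peaks and companions went with the size of the bins. In bins of 4 or 5 peaks, negative reads were present at 7.41% (4.11 to 12.1) of isolated peaks and at 8.95% (6.47 to 11.99) of the other peaks of the same bins. In bins of 6 to 9 peaks the shares were 10.1% (5.78 to 16.2) and 13.2% (10.99 to 15.7), in bins of 10 to 14 peaks 13.5% (6.68 to 23.5) and 18.4% (15.7 to 21.4), and in bins of 15 or more 11.8% (3.30 to 27.5) and 22.2% (18.98 to 25.6). Isolated peaks were lower in each of the 4 classes, but in every class the intervals overlap. Weighted to the isolated peaks' own mix of bin sizes, the companions' share came to 13.0% in place of 16.1%, against 9.66% in isolated peaks. For all other autosomal peaks it came to 11.7% in place of 19.01%, a value inside the interval of the isolated peaks. The same weighting gave 8.54% in place of 10.8% for companions with 40 or more positive reads, against 4.49% in isolated peaks, and 2.35% in place of 2.91% for 50 or more, against 0.899%. For all other autosomal peaks the weighted shares were 8.33% for 40 or more and 2.46% for 50 or more.

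The summed ratio of positive to scaled negative strand reads was not higher in isolated peaks at every bin size. In bins of 4 or 5 peaks it was 13.8 (11.4 to 16.7) in isolated peaks, 13.2 (11.8 to 14.9) in companions and 13.1 (12.1 to 14.2) in all other autosomal peaks. In bins of 6 to 9 peaks it was lower in isolated peaks, at 8.37 (7.12 to 9.92), than in companions at 9.28 (8.64 to 9.99) or in all other autosomal peaks at 9.40 (9.08 to 9.74), with overlapping intervals. These bins held 189 and 148 of the 445 isolated peaks. In bins of 10 to 14 peaks the ratio was 10.8 (8.32 to 14.3), against 5.72 (5.39 to 6.08) in companions and 7.03 (6.88 to 7.20) in all other autosomal peaks. In bins of 15 or more it was 7.50 (5.42 to 10.7), against 4.57 (4.32 to 4.84) and 4.92 (4.87 to 4.98). The intervals of the isolated peaks lie above the others in these fuller bins, which held 74 and 34 isolated peaks. These intervals count every read as independent, although few isolated peaks in these bins supplied the negative reads. Counted by peaks with any negative read, the intervals of isolated peaks and companions overlap in both classes.

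The difference also varied with peak length. Among peaks of 29 to 31 bp, negative reads were present at 15 of 70 isolated peaks, 21.4% (12.5 to 32.9), and at 21.0% (17.5 to 24.8) of companions. At 32 to 59 bp the shares were 10.3% (6.49 to 15.3) and 16.4% (14.1 to 18.8). At 60 to 119 bp, 3 of 139 isolated peaks had negative reads (2.16%, 0.447 to 6.18), against 109 of 882 companions (12.4%, 10.3 to 14.7), the one length class whose intervals do not overlap. At 120 bp or more, 4 of 32 isolated peaks had them (12.5%, 3.51 to 28.99), against 18.4% (13.8 to 23.9). The 3 peaks of 60 to 119 bp were those on chromosome 1 from 177147611 to 177147713, chromosome 3 from 123977916 to 123978019 and chromosome 5 from 16577901 to 16577965, with 8, 6 and 2 negative strand reads. The length classes were set after the list had been seen.

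**Figure D5:**
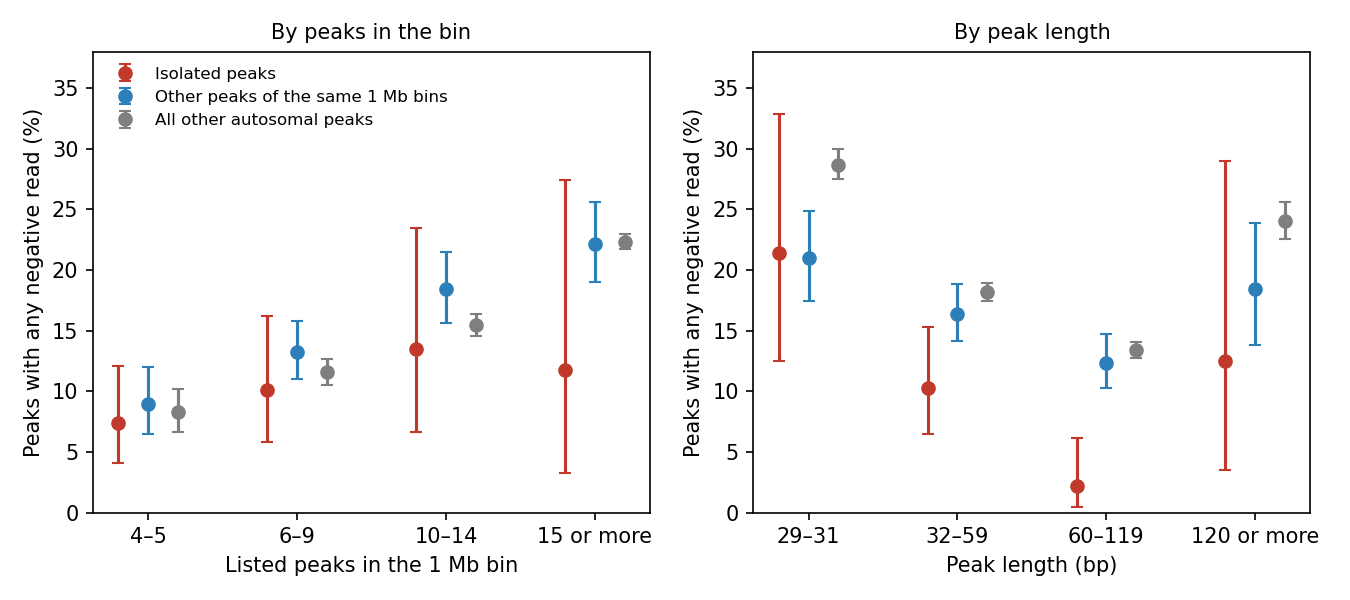
Share of peaks with any negative read (vertical axis, percent, exact 95% intervals) by number of listed peaks in the 1 Mb bin (left) and by peak length in bp (right), for isolated peaks, other peaks of the same bins and all other autosomal peaks. Isolated peaks lie below the bin companions in each bin class with overlapping intervals, and stand clear of them at 60 to 119 bp, at 2.16% against 12.4%.

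At like read numbers the order was the same. With 12 to 22 positive reads, negative reads were present at 8.97% (3.68 to 17.6) of isolated peaks and 12.7% (9.67 to 16.2) of companions. With 23 to 27 reads the shares were 6.59% (3.45 to 11.2) and 11.9% (9.82 to 14.3), with 28 to 34 reads 13.5% (8.06 to 20.7) and 16.8% (14.3 to 19.7), and with 35 or more 11.9% (4.91 to 22.9) and 24.2% (20.7 to 28.03). The intervals overlap in all 4 classes. In the companions the share was highest in the class of 35 or more reads, and in isolated peaks it was highest in the class of 28 to 34, a difference that 59 isolated peaks in the top class leave uncertain.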

How the data were processed

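One deposited peak list for the whole series was used, with coordinates in mm9 per the submitters' processing notes. The aligner, the peak caller, the read filters and whether the input entered the negative set are not given in the sources used here. Per the file headers, the authors' list holds read counts of the positive and the negative set, not normalised, over each whole peak and by strand, and the highest reads of any window, a coverage signal. The authors computed log2 folds of positive over scaled negative reads, as deposited. Their peak caller's false discovery rate (a q-value) was used as deposited, per the file headers. Delta, a score in the deposited list, has no stated making, per the file headers, and was not used. Positive was read as wild type and negative as Rap1-deleted, following the design text.

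Distances and bins of 1 Mb were computed from peak midpoints with Python 3.11.15, numpy 2.4.6, pandas 2.3.3 and scipy 1.17.1. The factor of 3.321 was solved from 180 deposited strand folds under 0, of which 173 return it within 0.001. For a peak free of negative reads, the bound came from a floor of 3 counts for the pooled libraries. Interval and neighbour code was tested on simulated data. A comparison between wild-type and Rap1-deleted libraries needs values per library and was not run; gene features and TTAGGG matches need an mm9 genome, not used here.

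The peak set and the comparisons were chosen with earlier results of these data known. The regions named are the 10 best-ranked isolated peaks, the best of each autosome, the 5 most remote, the 5 in the fullest bins, the 5 with most negative strand reads and the 3 on either side of the limit; others are marked as chosen after their values were seen. The alternatives were other distance limits and bin minimums, shifted bins, edge distances, stricter lists, merging within 1 kb, trimmed chromosome ends, a list without peaks of 29 to 31 bp, leaving out chromosome 1 and unscaled negative reads.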

Additional observations from a re-analysis of the deposited data

How the results depend on the processing

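The number of isolated peaks followed the rule. It was 963 with a limit of 150 kb and 112 with 300 kb, 697 with no bin minimum and 256 with 6 or more peaks in the bin. The share without any negative read was 93.5% when peaks of 29 to 31 bp were removed from the list. The summed strand ratio of 10.4 was 12.7 with 150 kb, 7.99 with 300 kb, 12.5 with no bin minimum, 8.81 with 6 or more peaks, 9.05 with the better-ranked 50% of the list, 22.2 without peaks of 29 to 31 bp and 34.4 with unscaled negative reads. The median positive reads were 29 with a list limited to a false discovery rate of 0.01 and 31 with the better-ranked 50%; both lists select on reads. The median length was 48 bp with 300 kb, 58 bp and 61 bp with those 2 lists and 59 bp without peaks of 29 to 31 bp. The share of 29 to 31 bp peaks was 20.5% with 300 kb and 12.4% and 11.1% with the 2 lists. The share at a false discovery rate of 0.01 or less was 100% in both lists by construction. The share with 50 or more positive reads was 0% of 112 peaks with 300 kb, and 2.97% and 3.87% with the 2 lists. Of 96 alternative values, 70 stayed within the counting interval, or within 1.5 times for a number of peaks. Some alternatives changed the set little: edge distances gave 445 peaks, merging 444, trimmed ends 426 and leaving out chromosome 1 gave 403. Their values could hardly move, so the 70 is no measure of stability. Where a value moved and no construction shows why, the cause was not tested. No paired analysis was possible because the list pools the libraries; for the same reason no replicate could be left out. The unknown depth limits every statement about peaks without negative reads.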

Other observations

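The 745 non-isolated neighbours of isolated peaks lay between the isolated peaks and the unweighted other autosomal peaks in both read measures. Negative reads were present at 12.3% (95% interval 10.1 to 14.9) of these neighbours, and 1.61% (0.835 to 2.80) held 50 or more positive reads. Both intervals overlap those of the isolated peaks (7.08 to 12.8 and 0.245 to 2.29). Weighted to the isolated peaks' bin sizes, the other autosomal peaks stood at 11.7%, under the neighbours, and at 2.46%, above them. Their summed strand ratio was 9.34 (8.66 to 10.1), and their median length was 54 bp.

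The isolated peaks in bins of 1 to 3 peaks, which the bin rule left out, had a median of 25 positive reads (24 to 26). They had a deposited false discovery rate of 0.01 or less in 47.2% (40.9 to 53.6) of cases, against 55.1% (50.3 to 59.7) in the 445 isolated peaks. Their summed strand ratio was 19.7 (16.2 to 24.2), from 104 negative strand reads.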
